A study of Mus musculus with 6 samples.

Results

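The genes described here are 34 genes of protein folding and quality control in the endoplasmic reticulum (ER): its chaperones, its disulphide isomerases and oxidases, the machinery of ER-associated degradation (ERAD), and the sensors of the unfolded protein response. They were found by their gene name in the scanner files, where they make up 34 of 37324 names. Monocytes were purified with magnetic beads from the marrow of C57BL/6J mice aged 6 to 8 weeks and were cultured for 60 h. Both groups received M-CSF at 20 ng/mL, the growth factor that moves monocytes towards macrophages. The control group (3 samples) received nothing more, and the IFN-beta group (3 samples) received 100 U of mouse IFN-beta, a type I interferon. Total RNA was extracted with Trizol, labelled with the dye Cy3 and hybridised to 1 Agilent array per sample. Nothing in the labels says whether the samples of a group came from separate mice or cultures, so p-values measure only the spread between these samples, which may be technical. Every level below is the log2 processed signal of a probe minus the 75th percentile of its array. Levels are therefore read within a probe, between arrays, and are not compared between genes.

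Proteins that enter the secretory pathway fold in the ER with the help of chaperones, sugar-reading lectins and enzymes that form disulphide bonds. When unfolded proteins build up, the sensors IRE1 (gene Ern1), ATF6 and PERK (gene Eif2ak3) start the unfolded protein response. IRE1 splices Xbp1 mRNA into the form that encodes an active transcription factor, ATF6 is cut to release one, and PERK phosphorylates eIF2alpha, which lowers translation overall and favours that of Atf4. XBP1 and ATF6 drive chaperone and ERAD genes, many through a promoter element called the ER stress response element (ERSE), while ATF4 drives amino acid and CHOP (gene Ddit3) programmes. Monocytes and macrophages use this machinery for secreted cytokines and lysosomal enzymes.

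The ERSE is shown first because several of these genes carry it. The element is known from genes of this kind, Hspa5 among them. Its share among them is therefore a description and not an independent test. Promoters of 300 bases (250 before and 50 after the transcript start) came from RefSeq on GRCm38.p6. They were matched by symbol for 29 of the 34 genes, in 30 promoters, since Derl2 has 2. Hyou1, Manf, Derl1, Atf6 and Sec61a1 were not matched. The ERSE, searched on both strands as CCAAT, any 9 bases and CCACG, occurred in 10 of the 30 promoters (33.3%), against 39 of all 32851 promoters (0.119%). In the lines that follow each match is written in the direction of the motif, and the capitals mark the fixed CCAAT and CCACG ends.

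Calr: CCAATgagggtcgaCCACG
Canx: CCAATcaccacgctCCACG
Creld2: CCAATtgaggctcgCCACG
Derl3: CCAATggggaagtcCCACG
Dnajc3: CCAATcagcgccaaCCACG
Ero1lb: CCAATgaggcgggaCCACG
Hsp90b1 distal: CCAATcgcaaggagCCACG
Hsp90b1 proximal: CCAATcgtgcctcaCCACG
Hspa5: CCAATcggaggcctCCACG
Pdia6: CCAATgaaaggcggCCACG
Syvn1: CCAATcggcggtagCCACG

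The match lay on the strand opposite to the gene in Calr, Creld2, Derl3, Ero1lb and the proximal copy of Hsp90b1. Relative to the transcript start the matches began between base -212, the distal copy of Hsp90b1, and base -44, in Syvn1. The shorter form ERSE-II, ATTGG, any 1 base and CCACG, occurred in 2 of the 30 promoters (6.67%) against 12 of all promoters (0.0365%), in Dnajb11 and Herpud1, and is written with its fixed bases in capitals.

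Dnajb11: ATTGGcCCACG
Herpud1: ATTGGgCCACG

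TGACGTGG, the core of the unfolded protein response element to which ATF6 and XBP1 bind, occurred in the promoter of Sec24d alone (3.33% against 0.676%). The spaced repeat of GAAA, any 2 bases and GAAA, the core of the element that interferon-activated factors bind, was in 0 of the 30 promoters and in 3.44% of all. The 5 letters CCACG, which are part of both ERSE forms and, on the other strand, of TGACGTGG, were in 24 of the 30 (80%) and in 32.8% of all. A match is a description of these letters in this window and not a measured binding site.

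Promoter stretches are printed for 4 genes that show the range of outcomes among the genes with an ERSE. Hspa5 (chr2:34771840-34772089) is the best studied carrier of the element and did not pass the test, Creld2 (chr15:88819396-88819645) and Pdia6 (chr12:17266339-17266588) rose, and Dnajc3 (chr14:118937682-118937931) fell. Each stretch is the 250 bases before the start, 5' to 3' on the plus strand, which is the gene's strand. The capitals mark the fixed ends of the ERSE, which in Creld2 lies on the opposite strand and reads CGTGG and ATTGG.

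Hspa5: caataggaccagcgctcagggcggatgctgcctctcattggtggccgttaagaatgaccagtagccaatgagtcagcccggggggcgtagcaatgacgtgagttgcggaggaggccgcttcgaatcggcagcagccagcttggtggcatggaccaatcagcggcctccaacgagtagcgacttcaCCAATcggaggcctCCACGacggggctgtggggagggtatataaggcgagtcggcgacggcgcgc
Creld2: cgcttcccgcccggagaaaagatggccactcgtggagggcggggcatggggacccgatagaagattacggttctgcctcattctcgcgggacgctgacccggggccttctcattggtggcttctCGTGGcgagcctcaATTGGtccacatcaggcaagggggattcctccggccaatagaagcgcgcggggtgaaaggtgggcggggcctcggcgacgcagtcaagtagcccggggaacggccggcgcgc
Pdia6: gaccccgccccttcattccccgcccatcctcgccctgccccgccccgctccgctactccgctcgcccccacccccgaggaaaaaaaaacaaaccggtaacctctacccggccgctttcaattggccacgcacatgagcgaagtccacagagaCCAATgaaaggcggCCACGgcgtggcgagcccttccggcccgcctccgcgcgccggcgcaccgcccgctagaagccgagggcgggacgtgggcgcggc
Dnajc3: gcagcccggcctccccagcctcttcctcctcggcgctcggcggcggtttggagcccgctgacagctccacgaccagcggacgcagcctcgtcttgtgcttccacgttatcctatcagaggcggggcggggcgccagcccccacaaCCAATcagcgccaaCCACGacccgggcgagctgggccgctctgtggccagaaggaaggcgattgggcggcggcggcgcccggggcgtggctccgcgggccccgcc

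**Figure D1:**
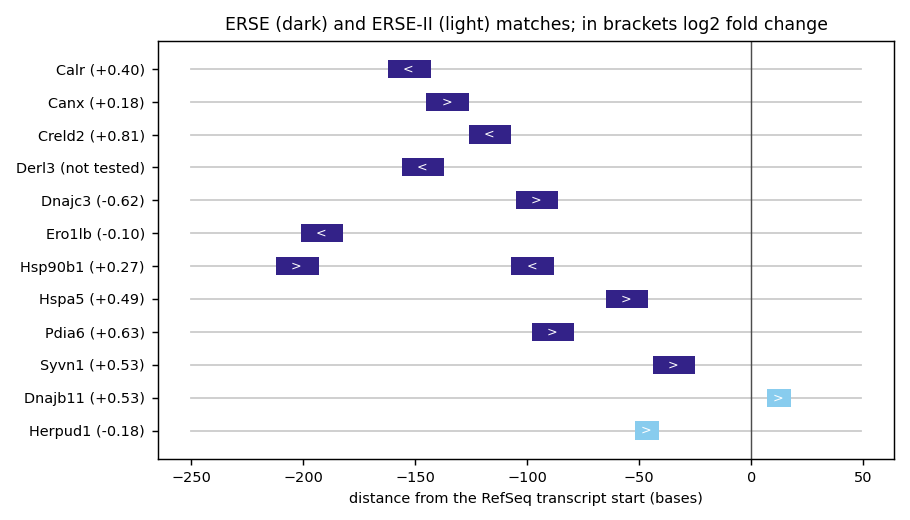
Positions of the ERSE (dark) and ERSE-II (light) matches in 12 ER gene promoters, in bases from the RefSeq transcript start; the arrow in each box gives the strand and the number in brackets the log2 fold change, IFN-beta minus control. The matches lie between bases -212 and 17, and the tested genes that carry them span differences from -0.62 (Dnajc3) to 0.81 (Creld2).

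With IFN-beta, 8 of the 34 genes rose and 3 fell (limma, Benjamini-Hochberg adjusted p under 0.05 over all 19500 genes tested). Those that rose were the chaperone Hyou1, the disulphide enzymes Ero1l, Pdia4 and Pdia6, the stress-secreted factor Creld2, the ERAD genes Edem1 and Derl1, and the stress sensor Ern1. Dnajc3, Sec24d and Wfs1 fell. The changes were moderate, from 1.54-fold (Pdia6 higher, Dnajc3 lower) to 2.3-fold (Edem1), and 5 of the 11 reached 2-fold. With spike-in scaling Hyou1 alone rose and 4 fell, where 4.91% of all genes rose and 14.6% fell. With normexp background correction and percentile scaling 8 rose and 5 fell (19.7% and 8.47% of all genes), and with normexp and quantile normalization 9 and 5 (15.1% and 10.4%). Both normexp fits lost Pdia4 and Pdia6 and gained Dnajb11 and Syvn1 among the genes that rose. Of the 33 genes tested, 24 had a positive difference and 9 a negative one. Their median was 0.43 (log2) against 0.10 over all genes. With normexp the medians were closer, at 0.19 against 0.18 with percentile scaling and 0.13 against 0.06 with quantile normalization.

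Among all genes tested, 11.8% rose and 8.04% fell, so the ER genes' 8 of 33 and 3 of 33 stand beside a large general response. The IFN-beta arrays lay above every control array in 16 of the 33 genes, where 23.4% of all genes did so. They lay below every control array in 6, where 16.8% of all genes did so. Among those 6 were Edem3, Eif2ak3 and Sel1l, whose other probes had the opposite sign. In total RNA from a whole culture, a change in the cells that make a transcript and a change in its amount per cell cannot be told apart.

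The control arrays did not form a tight group, and the size of the ER gene result depended on control 3. The 75th percentile of the signal was 549.7, 528.3 and 305.4 on controls 1, 2 and 3 and between 236.4 and 244.4 on the IFN-beta arrays. Spread is given over the 17522 genes that every array detected, as the median absolute deviation of the log2 differences, scaled to a standard deviation. It was 0.11 between controls 1 and 2, and 0.332 and 0.351 between them and control 3. Among the IFN-beta arrays it was 0.241 to 0.308. Controls 1, 2 and 3 and IFN-beta 1 shared a slide, and IFN-beta 2 and 3 were on another slide, so slide and treatment overlap in part. With the slide as a block, Hyou1 kept its call and the other 10 ER genes lost theirs, where 3.41% of all genes rose and 1.92% fell.

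Control 3 lay above both other controls in 24 of the 33 tested ER genes and below both in 6. The same count over all genes is not given, so it is not read as a trait of the ER genes. The medians over all genes, given below, also shifted with the choice of controls. Against control 3 alone, a fit in which control 3 is assumed to vary like the IFN-beta arrays, Hyou1 and Pdia4 rose and no ER gene fell by limma (6 and 4 at an unadjusted p under 0.05), where 5.22% of all genes rose and 4.33% fell. That comparison gave the 33 genes a median of 0.19 against -0.10 over all genes, with 20 positive differences. Against controls 1 and 2 alone, 17 ER genes rose and 5 fell, where 33.1% and 15.1% of all genes did, with medians of 0.51 and 0.22. Eif2ak3 and Sel1l, whose probes differ in direction, were among the 5. Controls 1 and 2 were also averaged as 1 sample, a setting chosen after seeing the data. Hyou1, Pdia4 and Ero1l then rose and no ER gene fell (8 and 4 at an unadjusted p under 0.05). Of all genes, 5.99% rose and 4.23% fell in that setting. No share over all genes is given at an unadjusted p, here or below. Those counts are therefore not read as results about the ER genes.

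The labelled cell type was checked against marker genes, given as the sum of linear levels relative to each array's 75th percentile. All 12 monocyte and macrophage markers were well above background on every array, with sums of 746, 721 and 1060 on controls 1, 2 and 3 and 1550, 1610 and 1590 on IFN-beta 1, 2 and 3 (brightest Lyz2 and Cd68). The markers did not move together. Ly6c1 (5.64, 5.62 and 6.04 in controls, 8.41, 8.51 and 8.43 with IFN-beta) and its near-identical neighbour Ly6c2 were far higher with IFN-beta. Cd14 was lower (4.43, 4.41 and 5.22 against 2.90, 2.71 and 3.0), as was Mertk, and these 4 were named after their values were seen. Since the sum includes Ly6c1 and Ly6c2, its higher value with IFN-beta is not read as more monocytes. Fibroblast and stromal markers (16 genes, brightest Fn1 and Acta2) summed to 685 and 787 on controls 1 and 2 and to 33 on control 3. On the IFN-beta arrays they summed to 27.6, 53.6 and 16.3. Fn1 lay at 6.42, 6.58 and -0.05 in controls, and at -0.95, -1.06 and -0.82 with IFN-beta. Acta2 did not follow it, at 5.62, 5.77 and 4.95, and at 4.59, 5.66 and 3.71. All 16 were well above background on controls 1 and 2, and 8 to 10 of them on the other arrays. Their part in the ER gene results was not tested, and control 3, which stands with the IFN-beta arrays in these markers, is given beside the calls.

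Neutrophil markers (12 genes, brightest S100a9 and S100a8) summed to 492 to 662 in controls and 857 to 1060 with IFN-beta. Basophil and mast cell markers (10 genes, brightest Mcpt8 and Prss34) summed to 7.84, 7.9 and 12.2 in controls and 96, 102 and 69.2 with IFN-beta. Plasmacytoid dendritic cell markers (10 genes, brightest Siglech and Bst2, the second itself interferon-induced) summed to 75.8 to 87.3 and 126 to 152. Siglech was lower with IFN-beta, at 5.65, 5.45 and 5.04 in controls and at 4.81, 4.96 and 4.50. Bst2 was higher, at 3.48, 3.26 and 3.92, and at 5.98, 6.42 and 6.58. The higher sum is therefore not read as more of these cells. Plasma and B cell markers (12 genes, brightest Cd79b and Sdc1), which matter here because plasma cells are rich in ER, summed to 5.6 to 7.56 in controls and 4.54 to 4.73 with IFN-beta, with 8 to 11 and 5 to 9 of the 12 above background. T and NK cell markers (10 genes, brightest Cd4 and Cd3e) summed to 4.61 to 5.45 and 4.96 to 6.9. Cell cycle markers (10 genes, brightest Pcna and Mcm6) summed to 192, 185 and 333 in controls and 256 to 282 with IFN-beta. The part of these cells in the ER gene results was not tested.

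**Figure D2:**
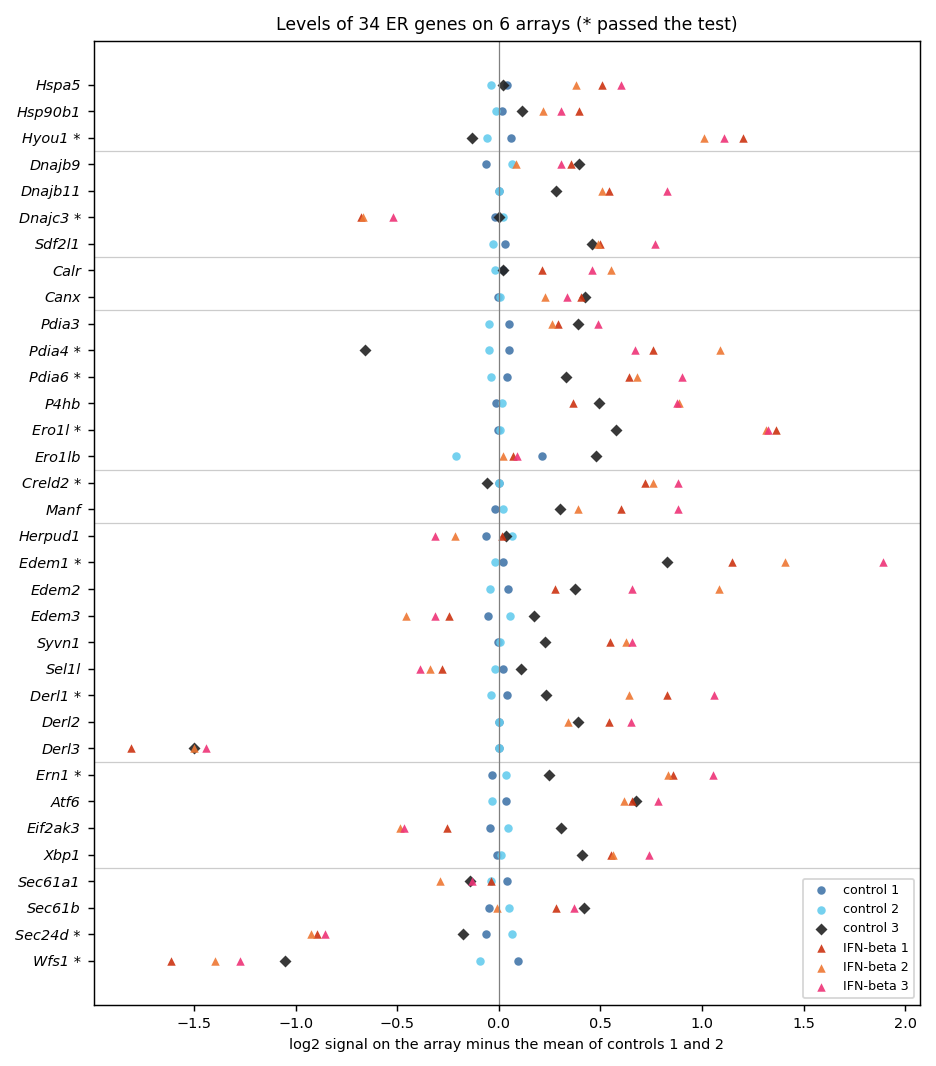
Levels of the 34 ER genes on the 6 arrays, as log2 signal minus the mean of controls 1 and 2 for the same gene (x axis); circles are controls 1 and 2, diamonds control 3 and triangles the IFN-beta arrays, an asterisk marks a gene that passed the test, and lines separate the roles. Control 3 falls between the other controls and the IFN-beta arrays for Edem1, Pdia6 and Wfs1, and with or beyond the other controls for Hyou1, Pdia4, Creld2 and Dnajc3.

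In the sentences that follow, levels are listed for controls 1, 2 and 3 and then for IFN-beta 1, 2 and 3. Differences are IFN-beta minus control on the log2 scale with the standard error of the limma fit (n = 3 and 3). Coordinates are those of the probe in the scanner files, on mm9. Among the 3 lumenal chaperones of the HSP70 and HSP90 families, 1 rose, and the median difference was 0.49 (0.47 against control 3 alone).

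Hyou1, a large HSP70 relative (GRP170) that also releases nucleotide from BiP, is read by a probe at chr9:44199354-44199413. It lay at -2.15, -2.27 and -2.34, and at -1.01, -1.20 and -1.10. All IFN-beta arrays lay above all controls, and control 3 was the lowest of the 6. Hyou1 rose by 1.15 ± 0.16 (2.22-fold, adjusted p = 0.00257 by limma), and by 1.23 against control 3 alone (adjusted p = 0.0187). This call held with each array left out in turn (adjusted p from 0.00112 to 0.0151) and with the slide as a block (adjusted p = 0.0324). Its other 3 probes gave smaller differences of 0.56, 0.62 and 0.33, and the groups overlapped on the third of these. The first of them was brighter than the probe used on every control (-1.88, -2.18 and -2.11) and dimmer on every IFN-beta array. The mean of all probes gave 0.66 (adjusted p = 0.0251 by limma).

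Hspa5 encodes BiP, the main HSP70 of the ER lumen and the protein that holds the stress sensors inactive. It lay at 6.01, 5.93 and 5.99, and at 6.48, 6.35 and 6.57. The groups did not overlap and control 3 stood with the other controls. The difference of 0.49 ± 0.15 did not pass the test (adjusted p = 0.0616), and its other probes gave 0.60 and 0.46. With normexp the Hspa5 difference was 0.19 (percentile scaling) and 0.13 (quantile normalization), and with spike-in scaling 0.16. Hspa5 passed as higher in 4 of the 21 alternatives. Hsp90b1, the HSP90 of the ER (GRP94) on which Toll-like receptors and integrins depend for folding, lay at 5.99, 5.96 and 6.09, and at 6.37, 6.19 and 6.28. These groups did not overlap either, with a difference of 0.27 ± 0.15 (adjusted p = 0.249).

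Of the J-domain co-chaperones, which stimulate the ATPase of BiP, and their partner Sdf2l1, none of the 4 rose and 1 fell, with a median of 0.28 (-0.01 against control 3). Dnajc3 (p58IPK), a co-chaperone also known as an inhibitor of eIF2alpha kinases, is read at chr14:119380429-119380488. It lay at 0.97, 1.01 and 0.99, and at 0.31, 0.32 and 0.47. The 3 controls were close together and all lay above the IFN-beta arrays. Dnajc3 fell by 0.62 ± 0.15 on the log2 scale (adjusted p = 0.0259, and 0.15 with the slide as a block), and the difference against control 3 alone was -0.63 (adjusted p = 0.123). The call was lost on leaving out any array but control 3 (adjusted p up to 0.115).

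Dnajb11 (ERdj3), a secreted co-chaperone whose promoter holds the ERSE-II shown above, lay at 3.66, 3.66 and 3.94, and at 4.20, 4.17 and 4.49. All IFN-beta arrays lay above the controls, and the difference was 0.53 ± 0.18 (adjusted p = 0.0712). Sdf2l1, a partner of Dnajb11, lay at 2.36, 2.30 and 2.79, and at 2.83, 2.82 and 3.1. Control 3 came close to the lowest IFN-beta array there, and the difference was 0.43 ± 0.20 (adjusted p = 0.153). Dnajb9 (ERdj4), an XBP1 target that holds IRE1 inactive, lay at 1.61, 1.74 and 2.07, and at 2.03, 1.76 and 1.98. Its groups overlapped and control 3 was the highest array, with a difference of 0.12 ± 0.19 (adjusted p = 0.682).

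Neither lectin chaperone, the proteins that hold monoglucosylated glycoproteins during folding, passed the test. Calr (calreticulin) lay at 4.68, 4.64 and 4.68, and at 4.87, 5.21 and 5.12, without overlap, and its difference was 0.40 ± 0.16 (adjusted p = 0.124). With normexp the Calr difference was 0.06 (percentile scaling) and 0.03 (quantile normalization), and with spike-in scaling 0.07. Calr passed as higher in 1 of the 21 alternatives. Canx (calnexin) lay at 5.68, 5.69 and 6.11, and at 6.09, 5.91 and 6.02. Control 3 was the highest of the 6 arrays for Canx, and the difference was 0.18 ± 0.18 (adjusted p = 0.508).

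The enzymes of disulphide bond formation held 3 of the 8 genes that rose, among 6 genes with a median of 0.59 (0.31 against control 3). Ero1l (now Ero1a), the oxidase that recharges disulphide isomerases, is read at chr14:45902895-45902954. It lay at 3.32, 3.33 and 3.90, and at 4.69, 4.64 and 4.65. The IFN-beta arrays were nearly equal and above all controls, and control 3 stood 43.1% of the way from controls 1 and 2 to them. Ero1l rose by 1.14 ± 0.20 (2.21-fold, adjusted p = 0.00795), with a difference of 0.76 against control 3 (adjusted p = 0.0691), and the call held with each array left out in turn (adjusted p from 3.33e-04 to 0.0393) but not with the slide as a block (1.17, adjusted p = 0.0894). Ero1lb (now Ero1b), the oxidase best known from insulin-producing cells, lay at -0.72, -1.14 and -0.45, and at -0.86, -0.91 and -0.84. Its groups overlapped, with a difference of -0.10 ± 0.21 (adjusted p = 0.759).

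Pdia4 (ERp72), a disulphide isomerase, is read at chr6:47746516-47746575. It lay at 1.05, 0.95 and 0.34, and at 1.76, 2.09 and 1.67. The IFN-beta arrays all lay above the controls, and control 3 was the lowest array, further from the IFN-beta arrays than controls 1 and 2. Pdia4 rose by 1.06 ± 0.24 (2.09-fold, adjusted p = 0.0194), and by 1.50 against control 3 alone (adjusted p = 0.0179). Without IFN-beta 2 its adjusted p was 0.0804, and with the slide as a block 0.185. Normexp gave smaller differences that did not pass, 0.69 with percentile scaling (adjusted p = 0.052) and 0.71 with quantile normalization (adjusted p = 0.0673).

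Pdia6 (P5), an isomerase that also switches IRE1 and PERK off, is read at chr12:17291070-17291129 and has the ERSE shown above. It lay at 6.19, 6.11 and 6.48, and at 6.79, 6.83 and 7.05. The groups did not overlap, and control 3 stood 45% of the way to the IFN-beta arrays. Pdia6 rose by 0.63 ± 0.18 (adjusted p = 0.0443, and 0.304 with the slide as a block), but the call was lost on leaving out any array but control 3 (adjusted p up to 0.176), and against control 3 the difference was 0.41 (adjusted p = 0.31). P4hb (PDI), the founding isomerase, lay at 4.02, 4.05 and 4.53, and at 4.40, 4.92 and 4.91. Control 3 overlapped IFN-beta 1, and the difference was 0.54 ± 0.22 (adjusted p = 0.126). Pdia3 (ERp57), the isomerase that works with calnexin and in MHC class I loading, lay at 3.85, 3.75 and 4.19, and at 4.09, 4.06 and 4.29, with overlap and a difference of 0.22 ± 0.18 (adjusted p = 0.419).

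Creld2, a small ER protein secreted under ER stress, is read at chr15:88656997-88657056. It lay at 4.38, 4.38 and 4.32, and at 5.10, 5.14 and 5.26. The 3 controls were nearly equal and all lay below the IFN-beta arrays. Creld2 rose by 0.81 ± 0.15 (1.75-fold, adjusted p = 0.00989), with a difference of 0.85 against control 3 alone (adjusted p = 0.0569), and its adjusted p was 0.055 without control 1 and 0.123 with the slide as a block. Manf, a secreted factor that binds BiP, lay at 3.0, 3.04 and 3.32, and at 3.62, 3.41 and 3.90. No control reached an IFN-beta array, and the difference of 0.52 ± 0.19 did not pass (adjusted p = 0.093).

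**Figure D3:**
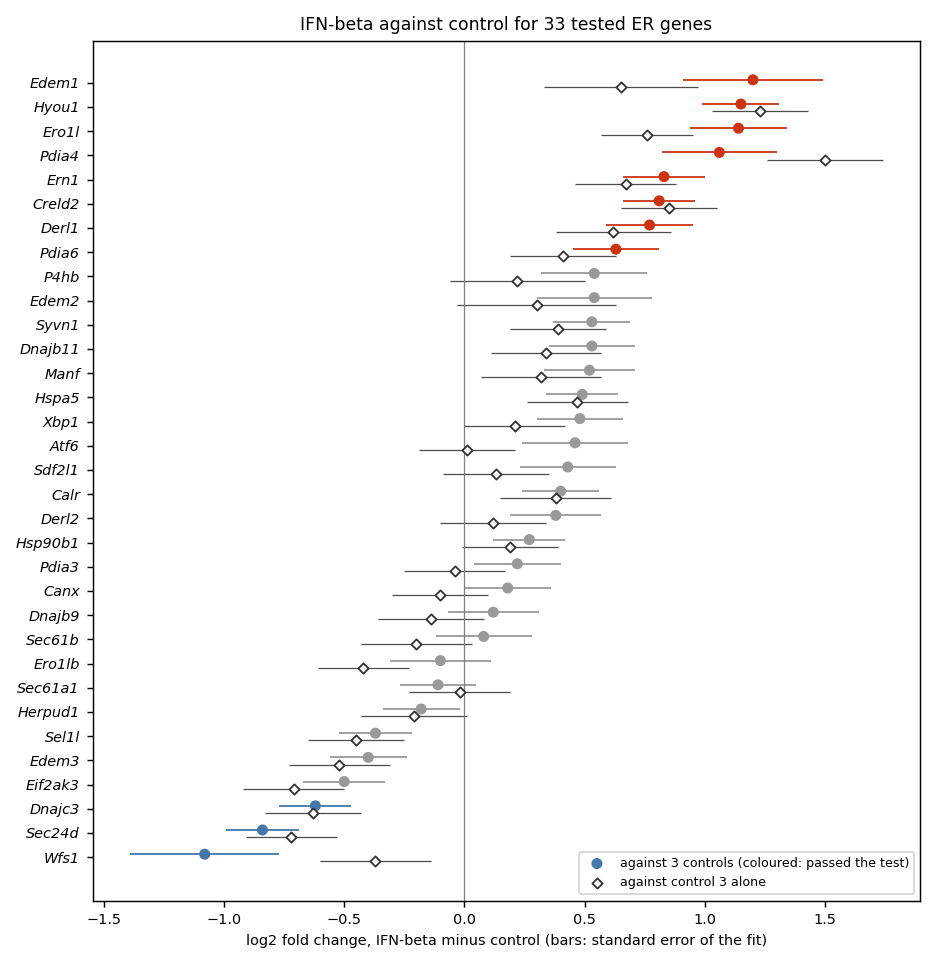
Log2 fold changes of the 33 tested ER genes, IFN-beta minus control, with the standard error of the fit as bars; filled circles are against all 3 controls (red rose, blue fell, grey did not pass) and open diamonds against control 3 alone. Against control 3 the difference is larger for Hyou1 (1.23) and Pdia4 (1.50) and smaller for Edem1 (0.65), and that of Wfs1 shrinks to -0.37.

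In ERAD, which recognises misfolded glycoproteins, moves them back to the cytosol and marks them with ubiquitin, 2 of 8 tested genes rose and none fell (median 0.46, and 0.21 against control 3). Edem1, a lectin that draws misfolded glycoproteins into ERAD and a target of XBP1, is read at chr6:108804262-108804321. It lay at 3.0, 2.96 and 3.81, and at 4.13, 4.39 and 4.87. Every IFN-beta array was above every control, but control 3 stood 56% of the way to the IFN-beta arrays. Edem1 rose by 1.20 ± 0.29 (2.3-fold, adjusted p = 0.0273, and 0.282 with the slide as a block), with a difference of 0.65 against control 3 (adjusted p = 0.274), and lost the call on leaving out any array but control 3 and IFN-beta 1 (adjusted p up to 0.0955). Its other probe, at chr6:108808920-108808979, lay at 3.29, 3.24 and 4.10, and at 3.68, 3.58 and 3.90. On that probe control 3 was the highest array and the difference was 0.18. It was brighter than the probe used on every control and dimmer on every IFN-beta array. The probe used was thus chosen, by its mean over all arrays, through its IFN-beta levels. The mean of both probes gave 0.69 (adjusted p = 0.109).

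Derl1, a membrane protein of the channel that moves proteins out of the ER, is read at chr15:57703097-57703156. It lay at 3.16, 3.08 and 3.35, and at 3.95, 3.76 and 4.18. The groups did not overlap, with control 3 27.5% of the way to the IFN-beta arrays. Derl1 rose by 0.77 ± 0.18 (1.71-fold, adjusted p = 0.023, and 0.178 with the slide as a block), with 0.62 against control 3 (adjusted p = 0.183). It lost the call on leaving out any array but control 3 and IFN-beta 2 (adjusted p up to 0.101). Its other probe gave 0.42 with overlapping groups, and the mean of both probes gave 0.60 (adjusted p = 0.0543). Derl2, its relative, lay at 4.86, 4.86 and 5.25, and at 5.40, 5.20 and 5.51. Control 3 overlapped IFN-beta 2 for Derl2, and the difference was 0.38 ± 0.19 (adjusted p = 0.184).

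Derl3, the family member most tied to XBP1 and secretory cells, was near the detection limit. It was well above background on controls 1 and 2 (-3.04 and -3.04) and not on control 3 (-4.54) or any IFN-beta array (-4.85, -4.54 and -4.48), and it was not tested. Controls 1 and 2 averaged at least 2.18-fold over the IFN-beta bound. No such figure is given for the 3 controls together, since control 3 was not above background. The bound takes, on each IFN-beta array, the higher of the Derl3 signal and the dimmest signal that still counted as above background there. The high arrays were thus the same 2 controls that have the high sums of fibroblast markers.

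Syvn1 (HRD1), the ubiquitin ligase of ERAD, lay at 4.48, 4.49 and 4.71, and at 5.03, 5.11 and 5.14. Its groups did not overlap, and the difference of 0.53 ± 0.16 narrowly missed the threshold (adjusted p = 0.0502, against 0.00645 without control 3). Sel1l, the adaptor that stabilises HRD1, lay at 4.69, 4.65 and 4.78, and at 4.39, 4.33 and 4.28, lower with IFN-beta without overlap (difference -0.37 ± 0.15, adjusted p = 0.119). The readings of Sel1l went both ways, since its other probes were higher with IFN-beta without overlap, by 0.96 and 0.42. The first of them lay at -0.61, -0.60 and -0.21, and at 0.01, 0.51 and 0.94. No direction is given for Sel1l.

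Herpud1, a membrane scaffold of the HRD1 complex, lay at 3.22, 3.35 and 3.32, and at 3.30, 3.07 and 2.97, with overlap (difference -0.18 ± 0.16, adjusted p = 0.456). Edem2, which trims the first mannose from ERAD substrates, lay at -1.55, -1.64 and -1.22, and at -1.32, -0.51 and -0.94. Control 3 overlapped IFN-beta 1, and the difference was 0.54 ± 0.24 (adjusted p = 0.148). Edem3, which trims further, lay at 0.44, 0.55 and 0.67, and at 0.25, 0.04 and 0.18. These arrays were lower with IFN-beta without overlap (difference -0.40 ± 0.16, adjusted p = 0.115), while its other probes gave 0.16 and 0.19.

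Of the 3 stress sensors and Xbp1, 1 rose (median 0.47, and 0.11 against control 3). Ern1, the kinase and RNase IRE1alpha, is read at chr11:106255965-106256024. It lay at 1.27, 1.34 and 1.55, and at 2.16, 2.14 and 2.36. All IFN-beta arrays lay above the controls, and control 3 stood 27.1% of the way to the IFN-beta arrays. Ern1 rose by 0.83 ± 0.17 (1.78-fold, adjusted p = 0.013, and 0.141 with the slide as a block), with 0.67 against control 3 alone (adjusted p = 0.116). The call did not survive leaving out IFN-beta 3 or either of controls 1 and 2 (adjusted p up to 0.0739). Its 2 other probes that were above background on all arrays were also higher without overlap, by 1.14 and 1.28.

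Xbp1, the transcript that IRE1 splices, lay at 5.49, 5.51 and 5.91, and at 6.05, 6.06 and 6.24. The IFN-beta arrays all lay above the controls, and control 3 was nearer to the IFN-beta arrays than to the other controls. The difference was 0.48 ± 0.18 (adjusted p = 0.0977), 0.21 against control 3, with 0.46 and 0.42 on its other probes. The arrays read the amount of transcript and do not show how much of it is spliced. Atf6, the sensor that is cut in the Golgi, lay at 1.84, 1.77 and 2.48, and at 2.46, 2.42 and 2.59. Control 3 lay within the IFN-beta range, so the difference of 0.46 ± 0.22 (adjusted p = 0.18) became 0.01 against control 3 alone.

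Eif2ak3, the kinase PERK, lay at 1.06, 1.15 and 1.41, and at 0.85, 0.62 and 0.64. It was lower with IFN-beta without overlap, and control 3 was the highest array (difference -0.50 ± 0.17, adjusted p = 0.0775). Its other probe lay at -2.51, -2.53 and -1.71, and at -1.43, -1.72 and -1.70, a difference of 0.63 with overlap. The direction for Eif2ak3 thus differed between its probes. Of the 22 genes that more than 1 probe reads, 5 gave opposite signs on probes that all 6 arrays detected: Edem3, Eif2ak3, Sec61a1, Sec61b and Sel1l. None of these 5 passed the main test. As lower genes, Eif2ak3 passed in 7 of the 21 alternatives, Sel1l in 6 and Edem3 in 1.

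**Figure D4:**
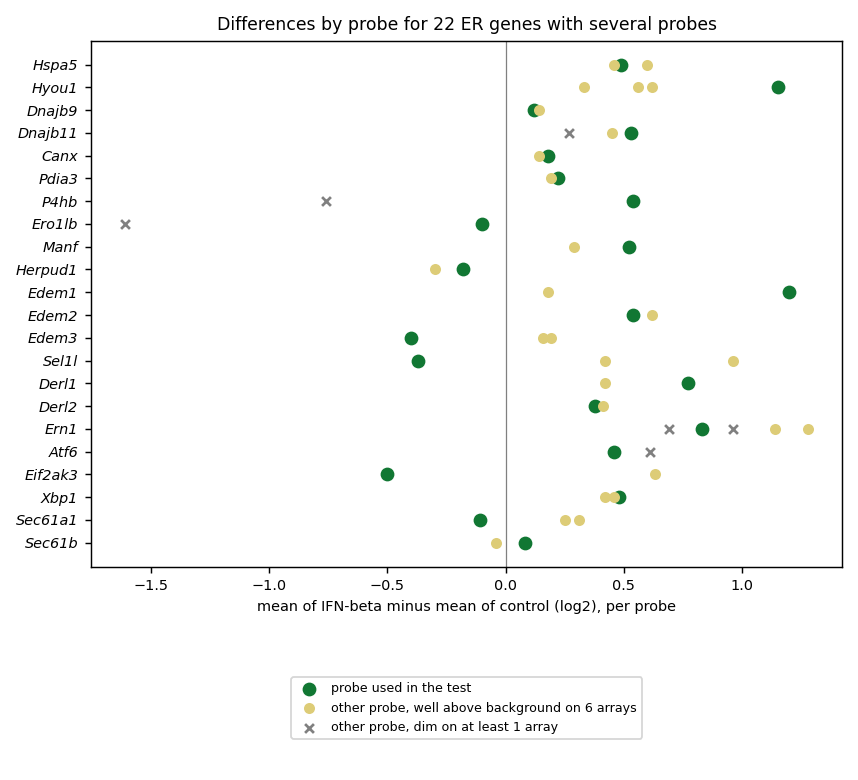
Differences between the group means (IFN-beta minus control, log2, x axis) for each probe of the 22 ER genes with several probes; large green circles are the probes used in the test, small circles other probes well above background on all 6 arrays, and crosses probes that were dim on at least 1 array. The Ern1 probes all lie on the positive side, those of Hyou1 spread from 0.33 to 1.15, and those of Sel1l lie on both sides of 0 (-0.37 and 0.96).

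The 4 genes of the translocon, the transport coat and ER calcium had the only negative median among the 8 roles (-0.47, and -0.29 against control 3), with none risen and 2 fallen. Sec24d, a cargo-binding subunit of the COPII coat that carries proteins out of the ER, is read at chr3:123068106-123068165. It lay at 1.15, 1.28 and 1.04, and at 0.32, 0.29 and 0.36. The groups did not overlap and were each tight, with control 3 19.9% of the way to the IFN-beta arrays. Sec24d fell by 0.84 ± 0.15 on the log2 scale (1.79-fold lower, adjusted p = 0.00962, and 0.102 with the slide as a block), with -0.72 against control 3 (adjusted p = 0.0797). Its adjusted p rose to at most 0.0554 and the call did not survive leaving out IFN-beta 2 or either of controls 1 and 2.

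Wfs1 (wolframin), an ER membrane protein of calcium handling that restrains ATF6, is read at chr5:37357424-37357483. It lay at 1.96, 1.77 and 0.81, and at 0.25, 0.47 and 0.59. Every control lay above every IFN-beta array, but control 3 stood 74.1% of the way to them. Controls 1 and 2 were the highest arrays, as in the sums of the fibroblast markers. Wfs1 fell by 1.08 ± 0.31 on the log2 scale (2.11-fold lower, adjusted p = 0.0449, and 0.182 with the slide as a block). It did not pass with quantile normalization (adjusted p = 0.0651) or, by limma on the authors' deposited values, in that table (adjusted p = 0.064). The difference against control 3 alone was -0.37 (adjusted p = 0.373), and the call was lost on leaving out any array but control 3 (adjusted p up to 0.148).

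The channel subunits of the translocon, through which new proteins enter the ER, did not pass the test. Sec61a1, the pore, lay at 4.76, 4.68 and 4.58, and at 4.68, 4.43 and 4.59 (difference -0.11 ± 0.16, adjusted p = 0.659). Sec61b, a small subunit, lay at 5.79, 5.89 and 6.26, and at 6.12, 5.83 and 6.21 (difference 0.08 ± 0.20, adjusted p = 0.808). Both genes had overlapping groups.

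The 12 genes with an ERSE or ERSE-II match differed in outcome. Creld2 and Pdia6 rose, Dnajc3 fell, Derl3 was not tested, and Calr, Canx, Ero1lb, Hsp90b1, Hspa5, Syvn1, Dnajb11 and Herpud1 did not pass. Sec24d, the gene with TGACGTGG, fell. The genes with the lowest adjusted p, Hyou1 and Ero1l, were respectively without a matched promoter and without either ERSE form in the window.

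Other genes of the pathway were taken from lists, each given as the number tested, the calls and the median against the same 0.10 over all genes. The PERK-ATF4 branch, the effectors below PERK that other eIF2alpha kinases also switch on, had calls in 1 direction: 9 of 12 genes rose, none fell, and the median was 1.01 (0.73 against control 3, where 5 were called). Ddit3 (CHOP), a transcription factor of prolonged stress, lay at 0.51, 0.59 and 0.71, and at 3.80, 3.92 and 4.20. It rose by 3.37 ± 0.17 (adjusted p = 6.45e-05), and by 3.26 against control 3 (adjusted p = 0.00149). Control 3 stood with the other controls, and the groups were far apart.

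Trib3, a pseudokinase induced by ATF4 and CHOP, lay at 1.87, 1.89 and 2.55, and at 5.53, 5.50 and 5.90. It rose by 3.54 ± 0.24 (adjusted p = 1.25e-04), and by 3.1 against control 3 (adjusted p = 0.00193). Chac1, an enzyme that degrades glutathione, lay at 1.0, 0.91 and 1.61, and at 3.11, 3.36 and 3.47, and rose by 2.14 ± 0.23 (adjusted p = 8.43e-04), and by 1.71 against control 3 (adjusted p = 0.00936). All of these differences exceeded that of every one of the 33 ER genes tested, whose largest was 1.20.

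The remaining 7 lists had 0 to 4 genes that rose and 0 to 2 that fell, to be read against the 11.8% and 8.04% of all genes. Against control 3 alone none of their genes passed. Of 19 other ER folding factors, 0 passed by limma (median 0.02, with 1 higher and 4 lower at an unadjusted p under 0.05), while leaving out control 3 gave 5 that rose and 4 that fell. In translocation and signal peptidase, 2 of 20 rose and 2 fell (median 0.10). Srp54a (-0.73 ± 0.17, adjusted p = 0.022, with -0.52 against control 3) and Sec63 (-0.67 ± 0.16, adjusted p = 0.0234, with -0.62) fell. Srp68 (0.91 ± 0.23, adjusted p = 0.032, with 0.87) rose, so members of the signal recognition particle moved in both directions. In N-glycosylation and the calnexin cycle, 1 of 20 rose (median 0.34), the cargo receptor Lman2 (0.88 ± 0.20, adjusted p = 0.0204, with 0.52 against control 3). That list had 12 genes that rose without control 3 and none called against control 3 alone (median -0.02).

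Of 20 other ERAD factors, 2 rose and none fell (median 0.23): Os9, a lectin that hands glycoproteins to HRD1 (0.64 ± 0.16, adjusted p = 0.0323, with 0.53 against control 3), and Nploc4, a partner of the p97 ATPase (0.58 ± 0.17, adjusted p = 0.0487, with 0.38). In the COPII list, 1 of 19 fell, the coat subunit Sec23a, at -0.84, -0.82 and -0.93, and at -1.77, -1.90 and -1.68 (difference -0.92 ± 0.15, adjusted p = 0.00654, with -0.85 against control 3; list median 0.11). Sec23a is the partner subunit of Sec24 proteins in the coat, and it and Sec24d both fell.

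Of 11 genes that process ATF6 or are related to it, 1 fell (median 0.10). It was Creb3l2, a transcription factor of secretory cells such as chondrocytes, at 2.94, 3.23 and 1.33, and at 0.61, 0.63 and 0.66 (difference -1.87 ± 0.45, adjusted p = 0.0262, with -0.70 against control 3). Control 3 lay far below controls 1 and 2, as it did in the sums of the fibroblast markers, and a link was not tested. Among 20 chaperones of the cytosol and mitochondria, 4 rose and 1 fell (median 0.27). Hspa9 (1.28 ± 0.22, adjusted p = 0.00773, with 0.88 against control 3) and Hspd1 (0.71 ± 0.17, adjusted p = 0.0253, with 0.49), chaperones of the mitochondrial matrix, rose, while the HSP70 co-chaperone Bag3 fell (-0.64 ± 0.16, adjusted p = 0.0292, with -0.71).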

How the data were processed

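The 6 samples, 3 per group by their labels, were read on 1-colour arrays. Per the file headers, the authors used Agilent Feature Extraction 12.0.3.1, and the deposited files give each spot's intensity, not normalized between arrays. The deposited value table holds log2 values, made with limma per the submitters' processing notes. Its normalization is not given in the sources used here. Its column medians were 4.82, 4.82, 4.83, 4.83, 4.83 and 4.82, its columns correlated with the log2 signal of their own array at 0.996 to 0.999, and it served as an alternative.

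Of 59305 non-control spots (56605 probes), 135 to 174 per array were flagged as outliers and dropped, and 7 probes were set aside for that reason. No spot was saturated, and 49.0% to 63.9% of probes were well above background. The number of arrays limits the precision. Spots of 1 probe were averaged, log2 was taken and the array's 75th percentile subtracted. A probe entered the test when all arrays of a group, or of both, had it well above background, and each gene was read by its probe with the highest mean. Fits used lmFit and eBayes of limma (3.58.1, in R 4.3.3 with data.table, version 1.17.8), with Benjamini-Hochberg adjustment over 19500 genes and a threshold of 0.05. The fitting script was tested on simulated data. The 34 genes had 67 probes, 60 of them above background on all arrays.

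All 34 genes are named. From each list of other pathway genes the 3 called genes with the lowest p and the called gene of lowest p in the direction with fewer calls were named, and from each marker list the 2 genes with the highest mean. Members and lists were chosen with earlier results of these data known. Probe positions (mm9) are those of the files, and exons were not assigned. Alternatives covered scaling, background correction, filters, probes, eBayes options, array weights, slide and replicate blocks, the deposited table and leaving out arrays.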

Additional observations from a re-analysis of the deposited data

How the results depend on the processing

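Of 693 gene and setting pairs over 21 alternatives, 527 kept direction and side of the threshold, 96 lost the call, 50 gained one and 20 turned direction, none of the last for a gene called with all arrays. The 8 genes that rose became 1 with spike-in scaling, 2 with no filter on dim probes (37322 genes) and 1 with the slide as block. They became 23 with array weights (a fit that stopped before convergence and called 12745 genes). With controls 1 and 2 averaged 3 rose, and with 1 array left out 3 to 17. The 3 that fell became 5 with normexp under either percentile scaling or quantile normalization, and 6 with array weights. They became 0 with no filter (5 at an unadjusted p under 0.05) and 0 with the slide as block (3 unadjusted). With controls 1 and 2 averaged 0 fell (4 unadjusted), and with 1 array left out 0 to 5. With the replicate block 7 rose and 1 fell. Of all genes, 1693 of 37322 were called in either direction with no filter, and 3264 of 19500 with the replicate block. With 1 array left out, 1828 to 9397 of 19500 were called. The numbers showed no pairing, with correlations of deviations of 0.072, 0.022 and 0.073. Of the fits with 1 array left out, the one without control 3 gave 17 that rose and 5 that fell. The causes were not tested.

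Within slide 1 there was 1 IFN-beta array, whose spread is taken from the controls, so only sizes are given. The median was 0.35 for the ER genes and 0.15 over all genes. Hyou1 differed by 1.24 and Ero1l by 1.17. Spike-in scaling shifted the median of all genes to -0.23 and that of the ER genes to 0.10. Uncalled genes that turned direction were Sec61b (-0.08 with quantile normalization, -0.18 and -0.21 with normexp and percentile or quantile scaling, -0.02 without control 1), and, with normexp and percentile scaling, Dnajb9 (-0.02) and Ero1lb (0.01). Spike-in scaling turned Hsp90b1 (-0.07), Dnajb9 (-0.21), Canx (-0.15), Pdia3 (-0.11) and Sec61b (-0.25). The mean of all probes turned P4hb (-0.11), Sel1l (0.34), Eif2ak3 (0.06) and Sec61a1 (0.15). Against control 3 alone Dnajb9 (-0.14), Canx (-0.10), Pdia3 (-0.04) and Sec61b (-0.20) turned, and without control 3 Ero1lb (0.06). With 1 array left out, Ero1lb ranged from -0.29 to 0.06 and Sec61b from -0.02 to 0.22. Signal over background limits Derl3, which only controls 1 and 2 measured.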
